A study of Mus musculus with 12 samples.

Results

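The variable segments of the T cell receptor alpha chain (Trav) and beta chain (Trbv) were examined in sorted regulatory T cells (Treg) of spleen and lung. They were chosen by symbol: 165 of the 55011 rows of the deposited count table, 130 Trav and 35 Trbv, began with Trav or Trbv, and the 83 rows with 30 counts or more over the 12 libraries were kept, 61 Trav and 22 Trbv. Each segment was expressed as a share, its counts as a percent of all kept variable counts of the same chain in the same library. Treg are CD4 T cells that restrain immune responses under the transcription factor Foxp3. The 4 groups had 3 libraries each, all from 21-day-old male C57BL/6 mice: lung ∆Foxp3, lung WT, spleen ∆Foxp3 and spleen WT. WT mice carried Foxp3.ires.GFP, an intact Foxp3 gene followed by a GFP reporter. The genotype label is ∆Foxp3.ires.GFP for the lung ∆Foxp3 libraries and ∆Foxp3.EGFP.iCre X R26.YFP for the spleen ∆Foxp3 libraries, an allele with a Cre recombinase in mice that also carry a YFP reporter at the Rosa26 locus. The protocol text names only ∆Foxp3.ires.GFP for both tissues. By the labels, the allele and the tissue cannot be told apart in the ∆Foxp3 groups. Spleen ∆Foxp3 also differs by label from spleen WT in the Cre allele and the YFP reporter. In every spleen genotype comparison, and in the interaction, the deletion therefore cannot be told apart from that allele and reporter. The sources used here do not say what the deletion removes from Foxp3. In every group 1000 live cells positive for TCRβ, CD4, GFP and CD25 were double-sorted into lysis buffer, so that all groups were selected for a surface beta chain. Whether each library had its own mouse is not in the labels, and the p-values refer only to the spread among these libraries, which may be technical.

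An alpha-beta T cell receptor is built in the thymus by joining gene segments, a variable, a diversity, a joining and a constant segment for the beta chain and a variable, a joining and a constant segment for the alpha chain. Each developing cell joins its own combination. The variable segment encodes the part of the chain that touches the MHC molecule and, with the junction, the peptide. In RNA from many cells, the share of a segment therefore reflects how many cells use it and how much receptor RNA those cells hold, and these bulk libraries cannot tell fewer cells from less RNA per cell. Mouse Trbv segments are few and most are unlike each other, but Trbv13-2 and Trbv13-3 are 90.6% identical in coding sequence. Mouse Trav segments lie in a cluster that has been copied within the chromosome, and the copies carry d or n in their names. Segments with dv in their name can also join to the delta chain.

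The ends of some of the most used segments and of some of those called below are shown first. Those of the alpha segments of invariant NKT cells are added. The variable exon ends at the junction, and these ends are only part of the sequence by which reads can tell segments apart. Each is the last 60 bases of the coding sequence in mm10 on the plus strand, from GENCODE M21 transcripts. The capitals mark the last in-frame cysteine codon, which in most variable segments is the conserved cysteine where the third complementarity-determining region begins.
Trbv3, chr6:41048769-41048828: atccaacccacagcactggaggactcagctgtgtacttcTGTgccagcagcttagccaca
Trbv19, chr6:41178989-41179048: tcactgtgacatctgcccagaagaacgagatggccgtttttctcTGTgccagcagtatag
Trbv13-2, chr6:41121773-41121832: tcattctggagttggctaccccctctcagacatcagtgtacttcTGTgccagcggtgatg
Trbv13-1, chr6:41116409-41116468: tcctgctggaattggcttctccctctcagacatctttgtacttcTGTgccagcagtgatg
Trbv13-3, chr6:41130526-41130585: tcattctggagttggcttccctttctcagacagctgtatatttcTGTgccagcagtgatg
Trbv5, chr6:41062744-41062803: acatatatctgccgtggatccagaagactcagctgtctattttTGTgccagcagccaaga
Trav9-4, chr14:53676571-53676630: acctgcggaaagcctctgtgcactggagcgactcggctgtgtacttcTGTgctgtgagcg
Trav4-4-dv10, chr14:53684118-53684177: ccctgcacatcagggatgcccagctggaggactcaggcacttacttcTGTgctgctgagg
Trav11, chr14:53519800-53519859: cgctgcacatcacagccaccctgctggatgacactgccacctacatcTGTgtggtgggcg
Trav11d, chr14:52824853-52824912: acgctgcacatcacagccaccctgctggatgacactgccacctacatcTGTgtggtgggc

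The next 3 pairs of alpha segments show how few bases separate the end of a segment from that of its closest copy in coding sequence. Each is the last 120 coding bases, and capitals mark the bases at which the members of a pair differ.
Trav13-1, chr14:53545406-53545525: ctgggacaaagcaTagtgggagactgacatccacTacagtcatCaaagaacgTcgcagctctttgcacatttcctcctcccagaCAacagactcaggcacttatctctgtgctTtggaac
Trav13d-1, chr14:52851747-52851866: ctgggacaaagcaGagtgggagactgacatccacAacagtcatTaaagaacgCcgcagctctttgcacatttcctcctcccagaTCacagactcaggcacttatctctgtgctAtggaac
Trav7-6, chr14:53717172-53717291: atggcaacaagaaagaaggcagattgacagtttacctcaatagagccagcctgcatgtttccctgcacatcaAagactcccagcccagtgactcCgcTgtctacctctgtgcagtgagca
Trav7n-6, chr14:53325089-53325208: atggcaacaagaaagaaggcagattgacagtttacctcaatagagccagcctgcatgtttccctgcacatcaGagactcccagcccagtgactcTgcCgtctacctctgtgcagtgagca
Trav6n-5, chr14:53105225-53105344: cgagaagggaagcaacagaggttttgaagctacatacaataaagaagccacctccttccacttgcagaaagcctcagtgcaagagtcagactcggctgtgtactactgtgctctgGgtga
Trav6-5, chr14:53491503-53491622: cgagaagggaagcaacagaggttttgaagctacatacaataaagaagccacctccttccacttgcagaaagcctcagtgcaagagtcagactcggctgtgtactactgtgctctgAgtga

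Over these 120 bases Trav13-1 and Trav13d-1 differ at 7 bases, Trav7-6 and Trav7n-6 at 3, and Trav6n-5 and Trav6-5 at 1. Over the whole coding sequence the same pairs differ at 12, 9 and 4 bases. The reads were 38 nt long. Of all 38-base stretches of a kept Trbv segment, a median of 100% and at least 93.4% occur in no other annotated variable segment. For the 60 kept Trav segments in the annotation the median was 47.9%, and 5 of them reached 90%. Beta shares can therefore be assigned to single segments, and alpha shares depend on how reads that fit several copies were counted, for which no rule is stated in the sources used here. The table held 553 counts for Trav13-1 and 13 for Trav13d-1, 126 for Trav7-6 and 0 for Trav7n-6, and 91 for Trav6n-5 and 209 for Trav6-5. Of the Trav rows with d or n in the name 21 of 74 were kept, against 40 of 56 of those without. All single-segment results for Trav with near copies, Trav13-1, Trav7-6 and Trav6n-5 included, are uncertain for this reason. For Trav13-1, Trav7-6 and Trav6n-5, shares summed by family are given beside the single shares, and levels were not summed. If reads that fit several copies were dropped, family sums would lack them too.

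Library totals ran from 3958892 to 9025150 counts, and kept variable counts from 549 to 1844 per library for Trav and from 1679 to 7614 for Trbv. A floor of 3 counts in a library is 0.163 to 0.546% of Trav counts and 0.0394 to 0.179% of Trbv counts. It covers counting error only, and not the choice of 1000 cells or the PCR copies, which carried no molecular identifiers. Foxp3 was 467, 383 and 188 CPM, a level scaled to library size with TMM factors, in lung ∆Foxp3, against 1411, 1354 and 1321 CPM in lung WT. It was 158, 113 and 225 CPM in spleen ∆Foxp3, against 1021, 986 and 1090 CPM in spleen WT. Every library labelled ∆Foxp3 thus lay below every WT library of its tissue. Cd4 was 904 to 913 CPM in lung ∆Foxp3, against 658 to 727 CPM in lung WT, and 797 to 873 CPM in spleen ∆Foxp3, against 601 to 715 CPM in spleen WT. The 5 CD4 Treg genes (Cd4, Foxp3, Il2ra, Ikzf2 and Ctla4) summed to 2280 to 3130 CPM in lung ∆Foxp3, 3950 to 4380 in lung WT, 1920 to 2250 in spleen ∆Foxp3 and 3600 to 3830 in spleen WT. Cd4 rose and 3 of the other 4 fell in lung, and Cd4 rose and the other 4 fell in spleen. CD8 markers (Cd8a and Cd8b1) summed to 14.2 to 48.0 CPM in lung ∆Foxp3, 20.9 to 21.6 in lung WT, 12.3 to 40.2 in spleen ∆Foxp3 and 24.1 to 35.5 in spleen WT. The rearrangement and pre-T cell genes Rag1, Rag2, Dntt and Ptcra summed to at most 2.14 CPM in any library. In 3 libraries some values stand apart from the other 11 libraries: spleen WT 1 in alpha usage, lung ∆Foxp3 3 in beta usage and lung WT 1 in the macrophage gene Lyz2, at 126 CPM against at most 7.54 CPM elsewhere. The fits were also run without these 3 libraries.

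Receptor variable RNA was a smaller part of the ∆Foxp3 libraries in both tissues, and more so for the beta chain. Trbv counts were 0.0415, 0.0436 and 0.0360% of all counts in lung ∆Foxp3, against 0.0614, 0.0559 and 0.0631% in lung WT. In spleen they were 0.0468, 0.0425 and 0.0455% in ∆Foxp3, against 0.0844, 0.0760 and 0.0707% in WT. The genotypes did not overlap in either tissue. Trav counts were 0.0163, 0.0158 and 0.0118% in lung ∆Foxp3, against 0.0190, 0.0183 and 0.0177% in lung WT. They were 0.0197, 0.0165 and 0.0178% in spleen ∆Foxp3, against 0.0204, 0.0204 and 0.0213% in spleen WT. Here too the genotypes did not overlap, but spleen ∆Foxp3 1 lay close to WT. These totals are descriptions with no test.

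Set against the constant segments that every chain carries, the beta total did not stand lower in ∆Foxp3 lung, while the alpha total did. Trbv counts per 100 counts of Trbc1 and Trbc2 were 38.3, 38.9 and 37.7 in lung ∆Foxp3, against 37.6, 36.6 and 37.2 in lung WT. They were 39.2, 33.3 and 40.6 in spleen ∆Foxp3, against 41.3, 43.6 and 40.6 in spleen WT, so that in spleen the groups met at their edges. Trav counts per 100 Trac counts were 31.3, 33.3 and 28.2 in lung ∆Foxp3, against 39.1, 40.8 and 34.9 in lung WT. These lung groups did not overlap, and no test was made. In spleen they were 33.9, 30.2 and 31.7 in ∆Foxp3 and 25.1, 32.3 and 33.6 in WT, and overlapped. The constant genes themselves were tested in edgeR's quasi-likelihood fit of levels over all 13295 genes that passed the low-count filter. The beta constant genes fell in ∆Foxp3 cells of both tissues: Trbc2 by 0.66 ± 0.14 (log2 fold change ± SE, adjusted p = 0.00456) in lung and by 0.71 ± 0.14 (adjusted p = 0.00176) in spleen. Trbc1 fell by 0.56 ± 0.13 in lung (adjusted p = 0.0088) and by 0.43 ± 0.13 in spleen (adjusted p = 0.0253). Trac had log2 fold changes of -0.02 ± 0.14 in lung (adjusted p = 0.941) and -0.26 ± 0.14 in spleen (adjusted p = 0.183). Their group, the 7 receptor complex genes, summed to 3470 to 4120 CPM in lung ∆Foxp3, 4690 to 4950 in lung WT, 3760 to 4240 in spleen ∆Foxp3 and 4950 to 6250 in spleen WT. Of these 7 (the 3 constant genes, Cd3d, Cd3e, Cd3g and Cd247), 3 fell in lung and 4 in spleen, and none rose.

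**Figure D1:**
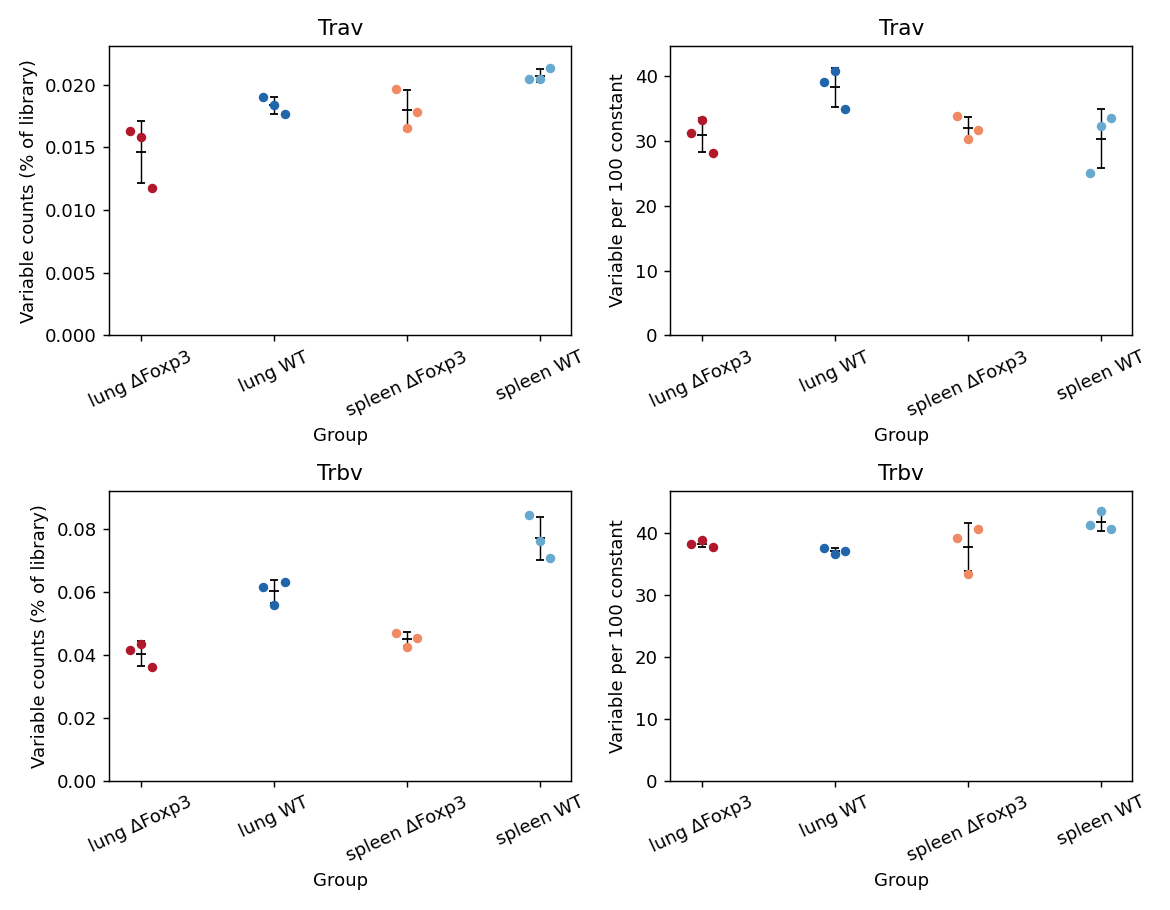
Variable counts of each chain as percent of library counts (left) and per 100 counts of the chain's constant genes (right) in the 4 groups; each point is a library, and the bar is the mean ± SD of 3. Trbv percent of library is 0.0360 to 0.0436 in lung ∆Foxp3 and 0.0559 to 0.0631 in lung WT, while per 100 constant counts the same groups stand at 37.7 to 38.9 and 36.6 to 37.6.

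The balance of beta to alpha variable counts was lower in ∆Foxp3 spleen, as a description with no test. There were 2.38, 2.57 and 2.55 Trbv counts per Trav count in spleen ∆Foxp3, against 4.13, 3.72 and 3.32 in spleen WT. In lung the ratio was 2.55, 2.75 and 3.06 in ∆Foxp3, against 3.23, 3.05 and 3.57 in WT, where lung ∆Foxp3 3 and lung WT 2 overlapped. For the constant genes the ratio of beta to alpha was 2.09, 2.36 and 2.29 in lung ∆Foxp3, against 3.36, 3.41 and 3.35 in lung WT. It was 2.06, 2.33 and 1.99 in spleen ∆Foxp3, against 2.51, 2.76 and 2.74 in spleen WT. The constant ratio separated the genotypes in both tissues. Counts of different genes also depend on length and capture, so the ratios compare libraries and do not count chains per cell.

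Beta usage was led by the same 4 segments in every group. Trbv3 held 8.93, 14.2 and 6.79% of Trbv counts in lung ∆Foxp3, against 8.78, 12.96 and 11.2% in lung WT. It held 10.1, 13.1 and 17.8% in spleen ∆Foxp3, against 9.81, 12.6 and 14.1% in spleen WT. The highest share of any segment in any library, 17.8%, was Trbv3 in spleen ∆Foxp3 3, and the groups overlapped in both tissues.

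Trbv19 was 12.8, 11.5 and 10.96% in lung ∆Foxp3, against 8.99, 10.9 and 10.7% in lung WT. The lung groups did not overlap, with the closest libraries at 10.96 and 10.89%, and the log2 fold change of the share was 0.21 ± 0.22 (edgeR adjusted p = 0.553). In spleen Trbv19 was 7.80, 14.5 and 12.7% in ∆Foxp3 and 13.5, 14.6 and 10.1% in WT, and the groups overlapped.

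Trbv1 was 12.5, 6.79 and 14.5% in lung ∆Foxp3, against 12.5, 11.9 and 11.3% in lung WT, and 13.02, 10.6 and 12.6% in spleen ∆Foxp3, against 11.5, 8.87 and 9.49% in spleen WT. Both its lowest and its highest library were lung ∆Foxp3. Trbv13-2 was 13.1, 9.49 and 6.85% in lung ∆Foxp3, against 11.9, 12.6 and 10.6% in lung WT. It was 11.4, 12.4 and 7.68% in spleen ∆Foxp3, against 13.9, 11.6 and 12.3% in spleen WT. In lung 1 ∆Foxp3 library lay above all WT libraries and the other 2 below them. In spleen the lowest ∆Foxp3 library lay far below WT and the others near or among the WT libraries.

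Trbv12-2 was 7.43, 12.5 and 7.56% in lung ∆Foxp3, against 7.85, 8.04 and 6.57% in lung WT, and ranged from 5.27 to 8.90% in spleen ∆Foxp3 and from 5.61 to 8.31% in spleen WT. Trbv15 ranged from 5.66 to 8.49% in lung ∆Foxp3, from 4.07 to 9.30% in lung WT, from 5.88 to 10.2% in spleen ∆Foxp3 and from 4.33 to 8.50% in spleen WT. The groups overlapped in every comparison of these segments. The other 16 kept Trbv segments averaged between 0.152% (Trbv24, typed as a pseudogene) and 6.82% (Trbv16). Divided by annotated length, the order of the leaders was Trbv13-2, Trbv1, Trbv3 and Trbv19, so their order depends on length and not on shares alone. The 5 most used segments of a library together held 48.7 to 56.0% in lung ∆Foxp3, 50.4 to 56.4% in lung WT, 50.1 to 60.9% in spleen ∆Foxp3 and 54.5 to 57.1% in spleen WT. Beta usage was thus concentrated alike, with ∆Foxp3 libraries at both ends of the range.

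**Figure D2:**
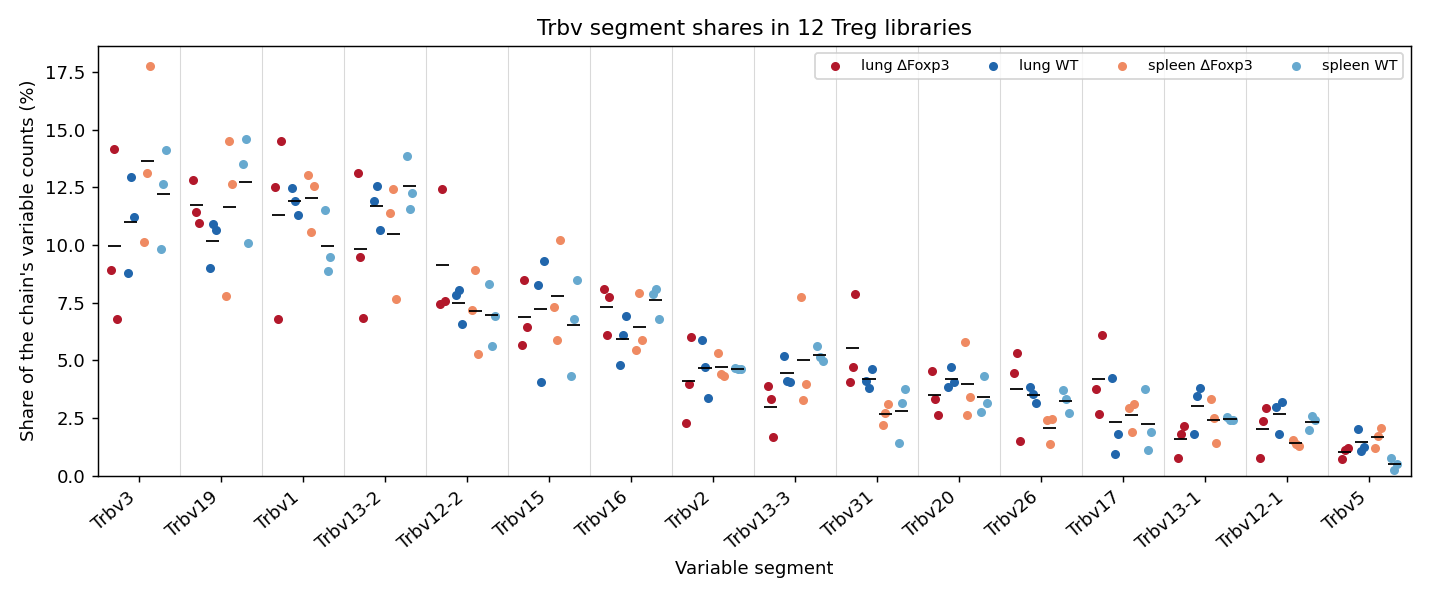
Share of Trbv counts (%, vertical axis) of the 13 most used Trbv segments and of Trbv13-1, Trbv12-1 and Trbv5; points are libraries, and bars are means of 3. In Trbv13-2 the ∆Foxp3 points reach from 6.85 to 13.1% in lung and from 7.68 to 12.4% in spleen, while WT points stay between 10.6 and 13.9%.

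Alpha usage was spread over more segments. Trav9-4, the segment with the highest mean share, held 5.38, 6.36 and 5.28% of Trav counts in lung ∆Foxp3, against 5.34, 5.37 and 5.06% in lung WT. It held 5.78, 4.85 and 6.31% in spleen ∆Foxp3, against 2.87, 6.65 and 4.75% in spleen WT. The library apart here was spleen WT 1. Trav12-2 held 8.63, 3.84 and 6.38% in lung ∆Foxp3, against 5.90, 1.65 and 3.02% in lung WT, and 3.28, 5.27 and 8.55% in spleen ∆Foxp3, against 5.69, 4.01 and 4.90% in spleen WT. It varied widely within 3 of the groups, and all groups overlapped.

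Trav4-4-dv10 held 9.76, 3.36 and 2.91% in lung ∆Foxp3, against 3.89, 2.62 and 3.89% in lung WT. It held 2.38, 4.72 and 8.46% in spleen ∆Foxp3, against 7.16, 8.75 and 2.76% in spleen WT. Trav21-dv12, which has no near copy (100% of its 38-base stretches are its own), held 4.81, 4.44 and 7.47% in lung ∆Foxp3, against 3.23, 2.62 and 1.75% in lung WT. In spleen it held 5.55, 6.93 and 1.41% in ∆Foxp3, against 2.71, 0.729 and 1.15% in WT. The lung groups did not overlap, and in spleen 1 ∆Foxp3 library lay among the WT libraries. Trav21-dv12 was not called in either tissue: its log2 fold changes in share were 1.13 ± 0.60 in lung (edgeR adjusted p = 0.206) and 1.55 ± 0.61 in spleen (adjusted p = 0.0732). Trav3-3 ranged from 4.20 to 6.38% in lung ∆Foxp3, from 3.78 to 4.38% in lung WT, from 3.33 to 4.48% in spleen ∆Foxp3 and from 1.25 to 4.19% in spleen WT. Divided by length, the order of the leaders was Trav13-1, Trav4-4-dv10, Trav9-4 and Trav12-2.

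Summed by family, alpha usage was flatter still among the leaders. Of the 18 Trav families with kept segments, Trav7, Trav9 and Trav14 averaged 11.3% each over the 12 libraries, on 8, 6 and 5 kept segments. Trav6 followed with 10.7% on 10 segments and Trav12 with 10.6% on 3. The Trav6 family averaged 8.92 ± 2.47% in lung ∆Foxp3, against 14.0 ± 2.30% in lung WT, and 8.26 ± 1.24% in spleen ∆Foxp3, against 11.7 ± 2.21% in spleen WT (SD, n = 3 each). No Trav family passed in any comparison by edgeR. Over all 34 families tested, edgeR called none between WT tissues (4.2% of all features), between ∆Foxp3 tissues (0.754%) or in the interaction (0.934%). At an unadjusted p under 0.05 there were 2 between WT tissues (5.88%, against 19.1% of all features), 5 between ∆Foxp3 tissues (14.7%, against 9.17%) and 1 in the interaction (2.94%, against 9.29%), and DESeq2 called 1 between WT tissues and 0 in the others.

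**Figure D3:**
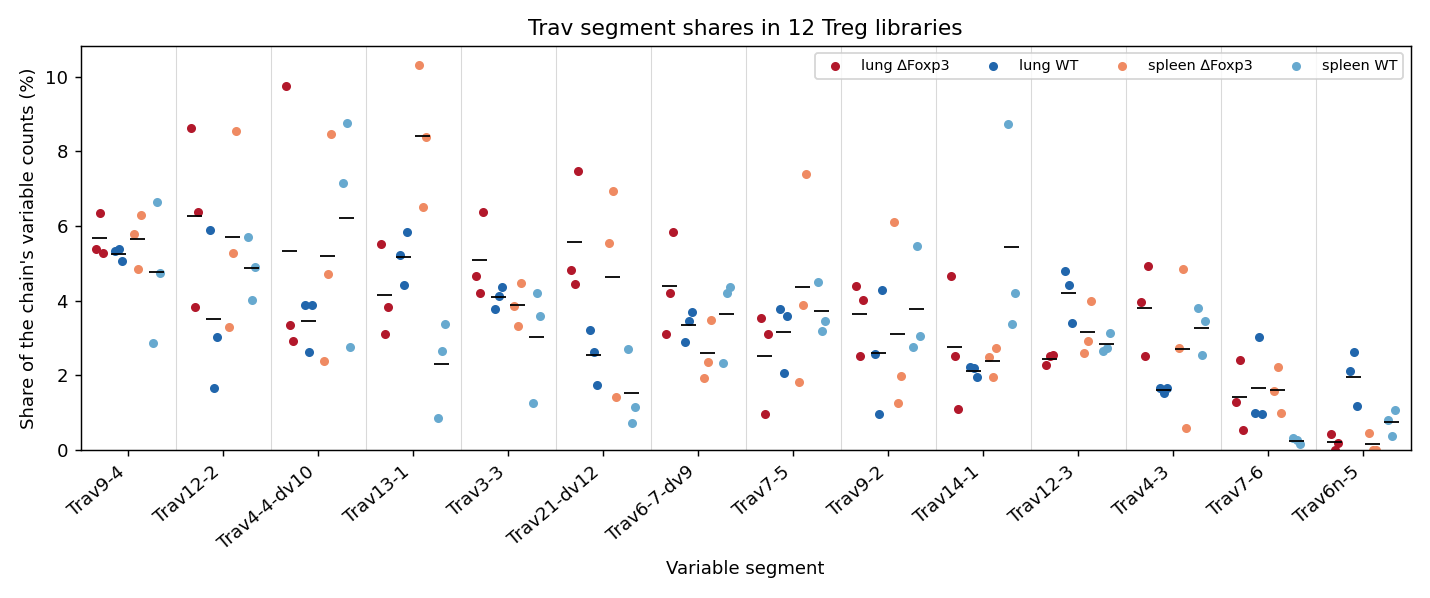
Share of Trav counts (%, vertical axis) of the 12 most used Trav segments and of Trav7-6 and Trav6n-5; points are libraries, and bars are means of 3. Trav13-1 and Trav7-6 in spleen ∆Foxp3 lie above all spleen WT points, and most other segments overlap between genotypes.

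In spleen, 3 segments took a larger share in ∆Foxp3 cells than in WT cells, Trav13-1, Trbv5 and Trav7-6, and none took a smaller one. By label these spleen groups also differ in the Cre allele and the YFP reporter, which cannot be told apart from the deletion. The test was edgeR's quasi-likelihood test with chain totals as offsets, fitted over all 13295 genes, of which 59 were kept segments (38 Trav and 21 Trbv). The 3 calls are 5.08% of the 59 segments, against 26.6% of all genes tested. All 3 were higher, where 14.1% of all genes were called higher. By direction alone 30 of 59 segments were higher, with a median log2 fold change of 0.00, against -0.02 over all genes. Shares of a chain sum to a fixed total, so a near-even split is largely set by the measure and is no result. In the fit of levels 41 of the 59 segments were lower in spleen ∆Foxp3 than in spleen WT, where 51.2% of all genes were.

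Trav13-1 (chr14:53545014-53545525, plus strand) held 10.3, 6.52 and 8.38% in spleen ∆Foxp3, against 0.868, 2.64 and 3.37% in spleen WT. The groups did not overlap, and its share rose by 1.89 ± 0.46 on the log2 scale (adjusted p = 0.00697). The call held under all 18 alternatives, with adjusted p from 0.000484 to 0.0366. Without spleen WT 1 the log2 fold change was 1.48. Its lung shares, 5.52, 3.12 and 3.83% in ∆Foxp3 and 5.23, 4.41 and 5.84% in WT, lay above all spleen WT libraries save for 1 overlap, and in lung it was not called (-0.32 ± 0.45, adjusted p = 0.676). Summed over the 6 kept members of the Trav13 family, the share was 13.1, 9.99 and 10.1% in spleen ∆Foxp3, against 10.1, 4.56 and 7.82% in spleen WT, with a log2 fold change of 0.55 ± 0.32 that did not pass (adjusted p = 0.222).

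Trbv5 (chr6:41062332-41062803, plus strand), which has no near copy, held 1.19, 1.73 and 2.05% in spleen ∆Foxp3, against 0.775, 0.245 and 0.508% in spleen WT. The groups did not overlap, and its share rose by 1.67 ± 0.49 (adjusted p = 0.019). The adjusted p ranged from 0.00547 to 0.0715 over the alternatives, and the call was lost without spleen WT 2 (0.0668), spleen WT 3 (0.0505) or spleen ∆Foxp3 3 (0.0584), and with only the spleen groups in the fit (0.0715). In lung Trbv5 held 0.721, 1.09 and 1.19% in ∆Foxp3 and 2.03, 1.08 and 1.25% in WT, which overlapped.

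Trav7-6 (chr14:53716716-53717291, plus strand) held 1.59, 2.22 and 0.996% in spleen ∆Foxp3, against 0.325, 0.274 and 0.153% in spleen WT, on 14, 16 and 12 counts against 6, 3 and 2. Its share rose by 2.58 ± 0.79 (adjusted p = 0.0257). The adjusted p ranged from 0.012 to 0.0931, and the call was lost without spleen WT 2 (0.0654), spleen WT 3 (0.0861), spleen ∆Foxp3 1 (0.0588) or spleen ∆Foxp3 2 (0.0931), and without the low-count filter (0.0722). The Trav7 family as a sum had a log2 fold change of 0.11 ± 0.23 (adjusted p = 0.756). In lung Trav7-6 held 1.27, 2.40 and 0.546% in ∆Foxp3 and 1.00, 3.03 and 0.973% in WT. Spleen WT was the group with the lowest mean share of all 4 for each of the 3 called segments. Summed by family, edgeR called 1 of 34 families in spleen (2.94%, against 26.5% of all features in that fit), the Trbv5 family, which is Trbv5 alone. The count was 2 by DESeq2, without the filter, with constant segment counts as denominator or without spleen WT 1, and 0 without spleen WT 2, without spleen WT 3 or with only the spleen groups.

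In lung no segment was called for a difference in share between ∆Foxp3 and WT by edgeR, of 59 tested, against 20.2% of all genes. At an unadjusted p under 0.05 there were 4 (6.78%, against 33.9% of all genes), and DESeq2 called 2. The 4 were Trav6n-5, Trbv14, Trav6n-6 and Trbv13-1, of which Trbv14 and Trav6n-6 fall outside the rule for named segments and were chosen after their values were seen, as is Trav6-5. Trbv14 held 2.16, 0.653 and 4.05% in lung ∆Foxp3, against 0.413, 0.994 and 0.573% in lung WT, with a log2 fold change of 1.79 ± 0.71 (adjusted p = 0.0875). Without lung ∆Foxp3 2, the library among the WT values, it was called. Trav6n-5 held 0.424, 0 and 0.182% in lung ∆Foxp3, against 2.11, 2.62 and 1.17% in lung WT, on 3, 0 and 1 counts against 19, 19 and 12. Its groups did not overlap, and its log2 fold change was -3.24 ± 1.15 (adjusted p = 0.0607). Its near copy Trav6-5 held 0, 0.600 and 2.00% in lung ∆Foxp3, against 3.56, 3.58 and 1.95% in lung WT, with a log2 fold change of -1.85 ± 0.88 (adjusted p = 0.153). The Trav6 family had a log2 fold change of -0.65 ± 0.28 (adjusted p = 0.117). No family passed in lung by edgeR, where 20.4% of all features were called. There 2 families had an unadjusted p under 0.05 (5.88%, against 34.1% of all features), and DESeq2 called 1.

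The number of segments whose libraries did not overlap between genotypes was 8 of 59 in lung (13.6%, against 45.3% of all genes tested) and 8 of 59 in spleen (13.6%, against 38.1%). In lung 4 were higher in ∆Foxp3 and 4 lower, where 23.2% of all genes were higher and 22.1% lower. In spleen 3 were higher and 5 lower, where 18.7% and 19.5% of all genes were. Segment shares separated by genotype in a smaller part of the segments than gene levels did over all genes. Segment counts are low and shares of a chain sum to a fixed total, and the part of either in this was not tested.

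Between tissues edgeR called no share in either genotype. In WT cells, lung against spleen, edgeR called 0 of 59 (4.14% of all genes), with 4 at an unadjusted p under 0.05 (6.78%, against 19.1%) and 2 called by DESeq2, Trav7-6 and Trbv5. These are segments that also differed between genotypes in spleen, and the comparisons share the spleen WT libraries. Their log2 fold changes between WT tissues were 2.64 ± 0.80 for Trav7-6 (adjusted p = 0.0761) and 1.49 ± 0.48 for Trbv5 (adjusted p = 0.0995). In ∆Foxp3 cells, lung against spleen, edgeR called 0 of 59 (0.722% of all genes), with 7 at an unadjusted p under 0.05 (11.9%, against 9.18%) and 0 called by DESeq2. Groups did not overlap for 9 of 59 segments between WT tissues (15.3%, against 25.6% of all genes) and for 6 of 59 between ∆Foxp3 tissues (10.2%, against 15.5%). Of the WT segments 6 were higher in lung and 3 lower, where 13.3% and 12.4% of all genes were. Of the ∆Foxp3 segments 2 were higher in lung and 4 lower, where 8.08% and 7.39% of all genes were. Tissue also goes with another dissociation, and in ∆Foxp3 cells with another allele label, which cannot be told apart from it.

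Whether the genotype difference in share itself differed between lung and spleen was tested as an interaction. By edgeR 0 of 59 segments passed (0.925% of all genes), with 3 at an unadjusted p under 0.05 (5.08%, against 9.24%), the same 3 that were called in spleen, and 1 called by DESeq2, Trav13-1. Its lung minus spleen difference of log2 fold changes was -2.20 ± 0.64 (adjusted p = 0.171). For Trbv5 it was -2.22 ± 0.68 (adjusted p = 0.219) and for Trav7-6 -2.78 ± 1.07 (adjusted p = 0.383). A call in spleen and none in lung is thus not shown to be a difference between tissues. The allele label of the ∆Foxp3 groups also changes with tissue and cannot be told apart from it in this test.

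As levels, that is relative to all RNA and not to the chain, beta segments were lower in ∆Foxp3 cells almost throughout. In the level fit 18 of 21 Trbv segments had a negative log2 fold change in lung and 20 of 21 in spleen, with medians of -0.66 and -0.73, against -0.01 and -0.02 over all genes. Of all genes, 50.9% were lower in lung and 51.2% in spleen. Segments of a chain move with the chain total, given above as lower. Counts of direction in level therefore largely restate that total and are no separate result. Few single segments passed: in lung 4 of 59 kept segments were called, all lower (6.78%, against 20.2% of all genes, with 10.5% lower). In spleen 7 of 59 were called, 5 lower and 2 higher (11.9%, against 26.6% of all genes, with 12.5% lower and 14.1% higher). Of the 38 tested Trav segments, 25 in lung and 21 in spleen had a negative log2 fold change, with medians of -0.46 and -0.21.

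In spleen Trbv16, Trbv13-2, Trbv19, Trbv12-1 and Trbv26 fell in level. Trbv16 was 25.01, 35.1 and 25.8 CPM in ∆Foxp3, against 66.6, 58.7 and 45.3 CPM in WT, a log2 fold change of -0.99 ± 0.22 (adjusted p = 0.00455). Trbv13-2 was 52.2, 54.9 and 33.7 CPM in ∆Foxp3, against 117, 83.9 and 81.5 CPM in WT (-1.01 ± 0.26, adjusted p = 0.00944). The groups did not overlap for either segment, and both calls held under all 20 alternatives. Trbv19 fell by 0.89 ± 0.24 (adjusted p = 0.0125), Trbv12-1 by 1.46 ± 0.42 (adjusted p = 0.0171) and Trbv26 by 1.39 ± 0.43 (adjusted p = 0.0253). Trbv19 lost its call without spleen WT 1 (0.0501) or spleen ∆Foxp3 1 (0.0695), Trbv12-1 without spleen ∆Foxp3 2 (0.0523), and Trbv26 without spleen WT 1 (0.0795), spleen WT 2 (0.0526) or spleen ∆Foxp3 2 (0.0993). Trbv19 also lost it with only the spleen groups in the fit (0.0577) or without spleen WT 1, lung WT 1 and lung ∆Foxp3 3 together (0.0634), and Trbv26 by limma (0.0825). Over all alternatives the adjusted p ran from 0.000948 to 0.0695 for Trbv19, from 0.00475 to 0.0523 for Trbv12-1 and from 0.00154 to 0.0993 for Trbv26. Without spleen ∆Foxp3 2 the spleen count was 4 segments. None of the 5 passed as a share. Groups did not overlap in level for 17 of 59 segments in lung (28.8%, against 45.3% of all genes), 2 higher and 15 lower, and for 16 of 59 in spleen (27.1%, against 38.2%), 2 higher and 14 lower. Lower without overlap were 22.2% of all genes in lung and 19.5% in spleen.

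Trav13-1 rose in level in spleen, with 19.8, 11.2 and 14.4 CPM in ∆Foxp3 against 1.77, 5.16 and 6.76 CPM in WT (1.74 ± 0.47, adjusted p = 0.0126), and this call held under all 20 alternatives. Trav7-6 rose by 2.42 ± 0.82 (adjusted p = 0.0402). Its adjusted p ran from 0.0221 to 0.124, and it lost its call without spleen WT 2 (0.0927), spleen WT 3 (0.119), spleen ∆Foxp3 1 (0.0855), spleen ∆Foxp3 2 (0.124) or lung ∆Foxp3 1 (0.0536), without the low-count filter (0.107), with only the spleen groups in the fit (0.0576) and by limma (0.0768). Trbv5, called as a share, did not pass as a level in spleen, at 5.44, 7.63 and 8.997 CPM in ∆Foxp3, against 6.54, 1.78 and 3.38 CPM in WT (0.90 ± 0.50, adjusted p = 0.205).

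In lung the 3 kept members of the Trbv13 family and Trav6n-5 fell in level. Trbv13-1 was 3.21, 8.09 and 8.003 CPM in ∆Foxp3, against 11.1, 19.6 and 24.3 CPM in WT (-1.51 ± 0.43, adjusted p = 0.0232). Trbv13-2 was 54.4, 43.0 and 25.6 CPM in ∆Foxp3, against 74.2, 71.7 and 68.2 CPM in WT (-0.80 ± 0.26, adjusted p = 0.0419). Trbv13-3 was 16.1, 15.0 and 6.22 CPM in ∆Foxp3, against 32.1, 23.5 and 26.1 CPM in WT (-1.13 ± 0.37, adjusted p = 0.0457). No ∆Foxp3 library reached a WT library in any of the 3, and lung ∆Foxp3 3 was the lowest for Trbv13-2 and Trbv13-3. As a share of Trbv counts the summed family was 17.8, 14.6 and 10.7% in lung ∆Foxp3, against 18.9, 20.1 and 18.5% in lung WT, a log2 fold change of -0.41 ± 0.21 that did not pass (adjusted p = 0.172). Trav6n-5 fell by 3.54 ± 1.17 (adjusted p = 0.0448).

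The lung level calls depended on single libraries. Without lung WT 2, lung WT 3 or lung ∆Foxp3 3 the count was 0. Without lung WT 1, lung ∆Foxp3 1 or spleen WT 2 it was 1, without spleen WT 3 it was 2, and without lung ∆Foxp3 2 the 1 call was Trbv3, not among the 4. Trbv13-1 kept its direction throughout, with log2 fold changes from -1.91 to -1.15 and adjusted p from 0.0043 to 0.105 over 20 alternatives. The adjusted p ran up to 0.229 for Trbv13-2, 0.314 for Trbv13-3 and 0.191 for Trav6n-5, so none of the 4 calls held under every alternative. Between tissues and in the interaction, edgeR called 0 of 59 levels, where it called 4.13%, 0.722% and 0.925% of all genes. At an unadjusted p under 0.05 there were 6 between WT tissues (10.2%, against 19.1% of all genes), 6 between ∆Foxp3 tissues (10.2%, against 9.18%) and 5 in the interaction (8.47%, against 9.26%). DESeq2 called 1, 0 and 1 there, and limma called 0, 1 and 1.

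Evenness was measured as the effective number of segments, the exponential of the Shannon entropy of the shares, which is the number of equally used segments that would give the same entropy. For Trav it was 31.8, 39.7 and 31.8 in lung ∆Foxp3, against 41.6, 42.7 and 43.6 in lung WT, and the groups did not overlap. In spleen it was 33.4, 38.8 and 29.5 in ∆Foxp3, against 34.7, 39.2 and 45.2 in WT, and the groups overlapped. Thinned to 549 counts per library, the means were 34.0 ± 4.18 in lung ∆Foxp3 and 42.0 ± 0.976 in lung WT (SD, n = 3 each). They were 33.3 ± 4.89 in spleen ∆Foxp3 and 38.3 ± 5.20 in spleen WT. After thinning, too, the lung groups did not overlap. Unthinned, the mean was 35.8 without lung ∆Foxp3 3, 43.2 without lung WT 1 and 42.2 without spleen WT 1. These are descriptions with no test.

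The part held by the 5 most used segments comes from the same shares as the effective number, so it describes the same evenness and is no separate result. The 5 most used Trav segments held 34.1, 25.9 and 32.2% in lung ∆Foxp3, against 25.1, 24.4 and 23.6% in lung WT. They held 37.4, 28.4 and 39.1% in spleen ∆Foxp3, against 30.3, 29.3 and 21.8% in spleen WT. The d and n copies held 11.99, 16.3 and 10.2% of Trav counts in lung ∆Foxp3, against 17.8, 19.8 and 19.4% in lung WT, so the lung group with lower evenness also had fewer counts in copies. In spleen the copies held 10.9, 18.5 and 12.4% in ∆Foxp3, against 17.2, 18.8 and 22.3% in WT. The part of the copies in the evenness was not tested. Kept Trav segments with no count numbered 7, 7 and 10 in lung ∆Foxp3, against 2, 3 and 2 in lung WT. In spleen they numbered 2, 5 and 13 in ∆Foxp3, against 11, 4 and 1 in WT. Spleen WT 1 thus missed 11 of 61 segments although its Trav total, 1844 counts, was the deepest.

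Beta evenness overlapped between the genotypes in both tissues. The effective number of Trbv segments was 14.6, 14.4 and 15.3 in lung ∆Foxp3, against 15.5, 15.0 and 15.5 in lung WT. It was 15.4, 14.0 and 13.5 in spleen ∆Foxp3, against 14.1, 14.7 and 15.1 in spleen WT. All 22 kept Trbv segments were counted in 10 of the 12 libraries, and the exceptions were spleen WT 1 with 20 and lung ∆Foxp3 3 with 21.

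**Figure D4:**
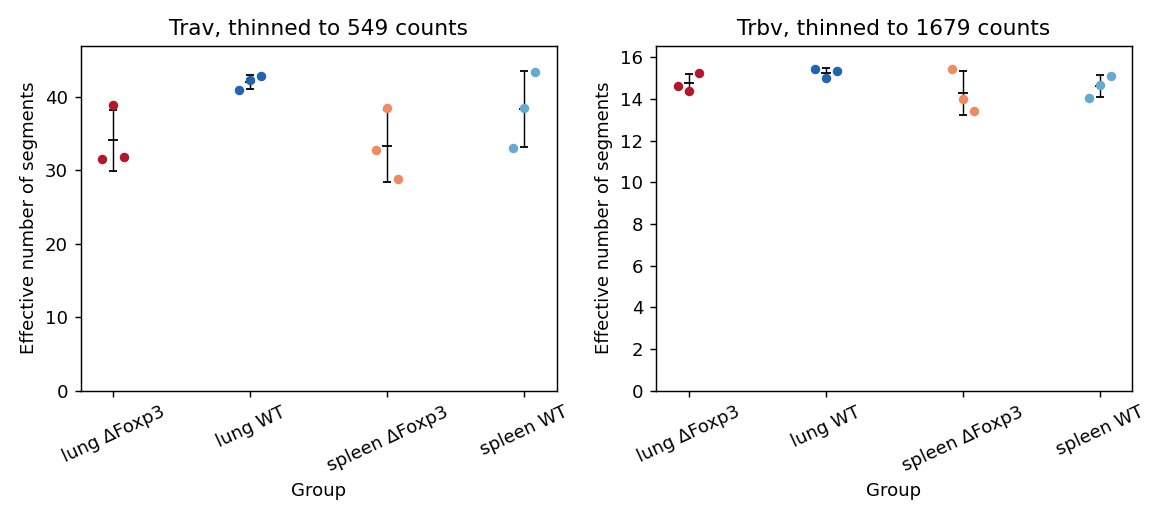
Effective number of segments (vertical axis) for Trav, thinned to 549 counts, and Trbv, thinned to 1679 counts; points are libraries, and bars are means ± SD of 3. Lung ∆Foxp3 Trav values lie below all lung WT values, while Trbv values of every group lie between 13.4 and 15.4.

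By medians, libraries of the same group differed in usage about as much as libraries of different groups. The distance between 2 libraries was taken as the summed excess of one library's shares over the other's, in percentage points of the chain. For Trbv its median was 15.5 over the 12 pairs within a group, 14.6 over the 18 pairs of the same tissue and other genotype, and 15.6 over the 18 pairs of the same genotype and other tissue. For Trav these medians were 29.1, 31.7 and 29.8. All pairs differed by more than counting error, with chi-square values per degree of freedom from 4.27 to 30.7 for Trbv and from 2.78 to 13.5 for Trav, so no library was a second deposit of another.

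Within a group, beta usage varied more between ∆Foxp3 libraries than between WT libraries. Trbv distances were 19.2, 20.4 and 24.7 within lung ∆Foxp3, against 13.4, 11.3 and 10.2 within lung WT. They were 18.6, 18.0 and 16.4 within spleen ∆Foxp3, against 12.7, 14.7 and 8.59 within spleen WT. In both tissues every ∆Foxp3 pair was farther apart than every WT pair. Thinned to 1679 counts, they were 19.3 to 24.6 in lung ∆Foxp3, against 10.7 to 13.9 in lung WT, and 16.6 to 18.5 in spleen ∆Foxp3, against 9.92 to 15.1 in spleen WT. Lung ∆Foxp3 3 was the library farthest from the others, with a median distance of 22.6, and the lung ∆Foxp3 pair without it, at 19.2, was still above the WT pairs. The 3 distances of a group share libraries and are not independent, and no test was made.

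Alpha distances separated the genotypes less. They were 29.3, 28.8 and 27.4 within lung ∆Foxp3, against 26.5, 23.4 and 25.7 within lung WT. Within spleen they were 34.5, 37.5 and 32.3 in ∆Foxp3 and 36.5, 37.2 and 23.6 in WT, where both high WT values are pairs with spleen WT 1. That library was the farthest from all others in alpha usage, with a median distance of 39.5, against 27.1 to 34.3 for the other 11. It had the highest Trav14-1 share, 8.73% against 1.09 to 4.67% elsewhere, a segment outside the rule for named segments and chosen after its values were seen. It also held 48 of the 50 counts of Trav11n.

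The spread of single segments comes from the same shares as the distances, so it is no separate result. By its median, the spread of beta segments was larger in ∆Foxp3 than in WT in each tissue. These shares were not thinned, and ∆Foxp3 libraries held fewer Trbv counts. The means were 1926 against 2928 counts in lung and 2344 against 5343 in spleen. The part of counting error in this spread was not tested. Among the 19 Trbv segments with a mean share of 1% or more, the coefficient of variation within a group had a median of 38.0% in lung ∆Foxp3, against 19.1% in lung WT, and of 28.2% in spleen ∆Foxp3, against 18.4% in spleen WT. It was larger in ∆Foxp3 for 14 of the 19 in lung and for 12 of the 19 in spleen. For the 33 Trav segments above that share the medians were 42.6% in lung ∆Foxp3, against 34.6% in lung WT, and 57.4% in spleen ∆Foxp3, against 49.9% in spleen WT. There the spread was larger in ∆Foxp3 for 20 of 33 in lung and 17 of 33 in spleen.

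**Figure D5:**
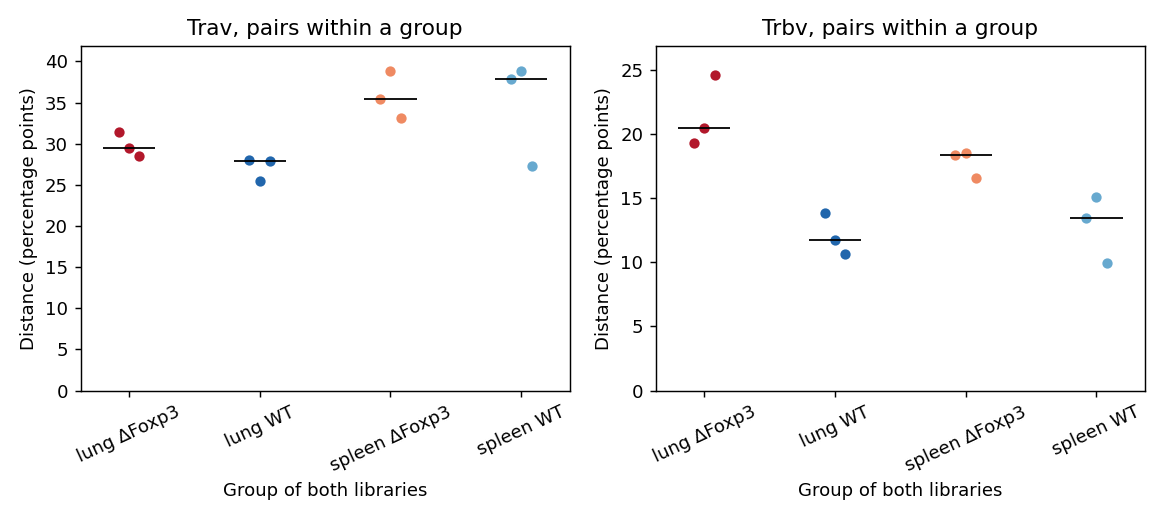
Distance in segment usage (percentage points, vertical axis) between libraries of the same group, after thinning to 549 Trav or 1679 Trbv counts; each point is a pair of libraries and the bar is the median of 3 pairs. Trbv pairs of lung ∆Foxp3 stand at 19.3 to 24.6 and of spleen ∆Foxp3 at 16.6 to 18.5, above lung WT at 10.7 to 13.9 and spleen WT at 9.92 to 15.1.

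Segments of T cells with invariant alpha chains were near 0. Trav11, the alpha segment of mouse invariant NKT cells, was at 0 counts in all 12 libraries, and its copy Trav11d had 2 counts, both in lung WT 3. The ends printed above are the same sequence offset by 1 base, and no 38-base stretch of either segment is its own, so reads from them could have been dropped as ambiguous and a count of 0 does not measure their RNA. Trav11n, a pseudogene in the annotation with 67.7% of its 38-base stretches its own, had 48 counts in spleen WT 1, 2.60% of its Trav counts, 2 in spleen WT 3 and none elsewhere. Trav1, the alpha segment of mouse MAIT cells, had 23 counts in all and lay under the 30-count limit. It was 0.283, 0.480 and 0% in lung ∆Foxp3, against 0.334, 0.551 and 0.389% in lung WT. It was 0.227, 0 and 0% in spleen ∆Foxp3, against 0, 0.0912 and 0.230% in spleen WT, below or near the floor of 3 counts in most libraries. Of the NKT and MAIT markers, Zbtb16 was at most 1.74 CPM and Klrb1c at most 5.37 CPM in any library.

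A pair of gamma chain transcripts were higher in ∆Foxp3 cells. Trgc2, a gamma constant gene, was 49.6, 83.3 and 54.2 CPM in lung ∆Foxp3, against 5.36, 7.48 and 1.92 CPM in lung WT (log2 fold change 3.70 ± 0.72, adjusted p = 0.00369). It was 21.3, 29.8 and 93.0 CPM in spleen ∆Foxp3, against 2.77, 12.4 and 14.1 CPM in spleen WT (2.33 ± 0.65, adjusted p = 0.0192). Trgv2, a gamma variable segment, was 18.4, 25.3 and 20.5 CPM in lung ∆Foxp3, against 0.214, 0.774 and 0 CPM in lung WT (6.10 ± 1.07, adjusted p = 0.00147), and 10.2, 6.92 and 27.8 CPM in spleen ∆Foxp3, against 0, 2.67 and 1.07 CPM in spleen WT (3.68 ± 0.86, adjusted p = 0.00618). Both were higher in every ∆Foxp3 library than in every WT library of the tissue. Of the 6 gamma delta T cell genes listed, 5 were tested, and these 2 passed in each tissue by edgeR, both rising. Trdv2-2, a delta variable segment outside that list, fell in spleen ∆Foxp3, with 0.218, 0.477 and 0.571 CPM against 2.55, 2.31 and 2.00 CPM in spleen WT (log2 fold change -2.35 ± 0.79, adjusted p = 0.0388). It was 0.689, 0.197 and 1.33 CPM in lung ∆Foxp3, against 2.79, 2.06 and 3.15 CPM in lung WT, and did not pass there (-1.84 ± 0.76, adjusted p = 0.102). It rests on at most 23 counts in a library. Trdc, the delta constant gene that gamma delta T cells need, did not pass, at 2.53, 1.78 and 1.56 CPM in lung ∆Foxp3, against 6.43, 3.09 and 9.10 CPM in lung WT, and 1.09, 3.34 and 2.28 CPM in spleen ∆Foxp3, against 8.31, 2.67 and 4.76 CPM in spleen WT. Trdv4 was at most 0.774 CPM and at 0 in all spleen WT libraries. The 6 genes summed to 84.9 to 130 CPM in lung ∆Foxp3, 20.5 to 25.9 in lung WT, 43.1 to 133 in spleen ∆Foxp3 and 31.2 to 35.9 in spleen WT.

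Markers of other cells beside these results were as follows. Of the 6 B cell genes, 4 were tested and 2 fell in each tissue, Ighm and Igkc, immunoglobulin constant genes. Ighm averaged 162 ± 61.6 CPM in lung ∆Foxp3, against 1907 ± 27.6 CPM in lung WT, and 104 ± 46.7 CPM in spleen ∆Foxp3, against 1184 ± 88.2 CPM in spleen WT (SD, n = 3 each). The 6 genes summed to 133 to 262 CPM in lung ∆Foxp3, 1930 to 1970 in lung WT, 78.1 to 159 in spleen ∆Foxp3 and 1120 to 1290 in spleen WT. Ms4a1, which encodes the B cell surface protein CD20, was at most 2.10 CPM in any library and at 0 in all spleen WT libraries. None of the 4 macrophage genes passed between genotypes. Their sum was 3.90 to 7.56 CPM in lung ∆Foxp3, 4.20 to 139 CPM in lung WT, 23.4 to 164 CPM in spleen ∆Foxp3 and 18.4 to 67.1 CPM in spleen WT, and the high lung WT value was lung WT 1. Lung against spleen, edgeR called 1 of the 4 macrophage genes lower in lung between WT tissues, where 4.13% of all genes were called. Between ∆Foxp3 tissues it called 2 of the 4 lower in lung, where 0.722% of all genes were called. The part of such other cells in segment usage was not tested.

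At the limit of 30 counts, the kept segments closest to it were Trav8d-1 with 33 counts and Trav6-1 with 39, and the closest left out were Trav15-2-dv6-2 with 29 and Trav3-4 with 26. Of the 82 rows left out, 55 had no count in any library and 27 had 1 to 29. Together they held 248 counts, 0.499% of all variable counts. Of the kept rows 53 were counted in all 12 libraries, 20 Trbv and 33 Trav, and 4 are typed as pseudogenes (Trbv24, Trav8-2, Trav9n-1 and Trav11n).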

How the data were processed

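Gene counts of 12 Smart-seq2 libraries were used as the authors deposited them, 3 libraries in each of 4 groups. The counts are on mm10 and the tools listed are Subread 2.0.0, featureCounts and STAR 2.7.3a, all per the submitters' processing notes. The sources used here state no annotation, no strand setting and no treatment of reads that fit several genes. Names, positions and sequences came from GENCODE M21, which held 82 of the 83 kept segments (all but Trav13-5).

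Rows were kept at 30 counts or more over all libraries. Shares, CPM, the effective number and distances were computed in Python 3.11.15 with pandas 2.3.3 and numpy 2.4.6, and sequences compared with biopython 1.88. Thinning drew 549 Trav or 1679 Trbv counts per library, 20 times. Tests used edgeR 4.0.16 (R 4.3.3), quasi-likelihood, all 4 groups in 1 fit and Benjamini-Hochberg adjustment over all genes tested, with a threshold of 0.05: a level fit with TMM factors, a share fit with chain totals as offsets for the variable segments, and a family fit with segments summed. Fits were tested on simulated data. DESeq2 1.42.0, limma 3.58.1 and the other alternatives are reported in the closing section. The main fits did not pair libraries by replicate number, and whether libraries of equal number share a mouse is not in the labels.

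The members and marker lists were chosen with earlier results of these data known. Some marker genes are not reported here. Named segments were the 6 with the highest mean share per chain, those called (up to 8 per comparison in share and 6 in level), those nearest the 30-count limit, Trav11, Trav11d, Trav1, Trbv13-2 and Trbv19.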

Additional observations from a re-analysis of the deposited data

Results flagged for a closer look

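Gamma chain transcripts gave a signal outside the alpha and beta segments that lay above the WT level. Trgc2 averaged 62.4 ± 18.2 CPM in lung ∆Foxp3, against 4.92 CPM in lung WT, and 48.0 ± 39.1 CPM in spleen ∆Foxp3, against 9.78 CPM in spleen WT (SD, n = 3 each). Trgv2 averaged 21.4 ± 3.53 CPM in lung ∆Foxp3, against 0.329 CPM in lung WT, and 15.0 ± 11.3 CPM in spleen ∆Foxp3, against 1.25 CPM in spleen WT. Spleen ∆Foxp3 3 was the highest of its group for both. Groups of 3 libraries are too small for the test of a single value far from the rest of its group, so none was made.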

How the results depend on the processing

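Spleen shares gave 1 to 4 called segments when each library was left out in turn, lung shares 0 to 1, spleen levels 4 to 8, lung levels 0 to 5, spleen families 0 to 2 and lung families 0 to 1. Called lung shares numbered 1 without the low-count filter, 2 by DESeq2, 1 with only the lung groups in the fit and 1 with constant segment counts as denominator. DESeq2 called 2 shares between WT tissues and 1 in the interaction. Called lung levels numbered 8 with only the lung groups, 10 by limma and 1 without spleen WT 1, lung WT 1 and lung ∆Foxp3 3. Between WT tissues 1 level was called without the filter and 1 by DESeq2, between ∆Foxp3 tissues 1 by limma, and in the interaction 1 by DESeq2 and 1 by limma. Called spleen families numbered 2 without the filter, 2 by DESeq2, 2 without those 3 libraries, 2 with constant denominators and 0 with only the spleen groups. Called lung families numbered 1 without the filter, 1 by DESeq2, 1 with only the lung groups and 1 with constant denominators, and DESeq2 called 1 between WT tissues. The mean effective number of Trav segments in lung WT was 45.9 with all rows and 41.2 without pseudogenes, against 42.7. The cause of these changes was not tested. No direction of a called segment reversed under any alternative run.

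Libraries with the same replicate number did not deviate together over all genes tested (correlations from -0.0439 to 0.0871). With groups of 3, these values cannot decide whether such libraries share a mouse. With the replicate number as a block, the replicate block gave 3 spleen and 0 lung shares, 7 spleen and 5 lung levels, and 1 spleen and 0 lung families.

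Low Trav counts, 549 to 1844 per library, and near copies limit single alpha segments.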
